A study of Mus musculus with 145 samples.

Results

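The 94 untreated mammary tumours of this mouse insertion screen differed in how their transposon insertion reads were spread over sites, and were divided into 47 dominated and 47 diffuse tumours. All 94 carried 4 alleles. Cre made under the promoter of the milk gene Wap (WAP-Cre) removed the stop cassettes of LSL-PB, the piggyBac transposase, and of LSL-PIK3CA(H1047R), which makes a lipid kinase subunit that is active without its usual signal, and ATP1 was the transposon to be moved. The tumours came from the mammary fat pad of mated females, had received no drug and were taken when the tumour burden of the mouse reached the permitted size. The titles name 23 mice for these tumours, and neither age nor strain is given in the labels. The other 51 of the 145 libraries, resistant tumours of the same genotype that grew under 30 mg/kg BYL719 (an inhibitor of PI3K alpha, started at 250 mm3), were used in 1 side comparison. Because Cre was active in mammary epithelium from late pregnancy, hosts kept their own stroma and immune cells, and each library was made from the DNA of a whole piece of tumour, in which the share of reads and the share of cells cannot be told apart.

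Where several of the 145 libraries had reads at the same position and strand, the site was kept only in the one with the most reads, and in none when libraries tied. For each tumour the share of its kept reads that lay in its 10 most-read kept sites was computed. Tumours above the group median of 12.6% were named dominated, the others diffuse. Tumours are numbered 1 to 94 in the order of the labels. The 2 classes were thus chosen by read counts, and every read share, library total and number of sites below describes that choice and supports nothing. Position and strand decided only which library kept a shared site. Chromosome, gene, orientation to the gene and sequence context were not used to choose the classes, and tests were run on these. These tests are not independent of the split, because read counts chose both the classes and the sites tested. A library left with 10 kept sites or fewer was dominated by the rule alone, and even its least-read sites entered the tests.

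PiggyBac is a cut-and-paste transposon that inserts at the tetranucleotide TTAA, and a cut element often lands near the donor locus it left, here chromosome 10. An insertion that favours growth is carried along as its cell expands, so the most-read sites of a tumour library are where a screen looks for cancer genes. An insertion can switch a gene on from the transposon's own promoter or interrupt it, and its orientation relative to the gene bears on which of these it can do. Splinkerette PCR, an adaptor-based method that amplifies the junction between transposon and genome, gave the reads, and PCR reads without molecular identifiers do not count cells.

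The sequence at each site, 8 bases in the site table, shows what an insertion looks like in these data. The lines that follow give the most-read kept site of 5 dominated tumours and 1 diffuse tumour on mm10, with TTAA in capitals, followed by 2 sites of tumours 41 and 1 that do not start with it.
Tumour 1, dominated, Myc region, chr15:61984801, plus strand: TTAAtaaa
Tumour 45, dominated, Ntan1 region, chr16:13819059, minus strand: TTAAggac
Tumour 94, dominated, Trps1 region, chr15:50828280, plus strand: TTAAggct
Tumour 25, dominated, Trps1 region, chr15:50835347, plus strand: TTAAggat
Tumour 87, dominated, Nf1 region, chr11:79366009, minus strand: TTAAcaaa
Tumour 77, diffuse, Trps1 region, chr15:50754978, minus strand: TTAAtgag
Tumour 41, dominated, no gene region, chr2:98667123, plus strand: gaaatgca
Tumour 1, dominated, no gene region, chr9:3023516, plus strand: tcagtgat
The most-read kept site was at TTAA in 45 of 47 dominated and in 46 of 47 diffuse tumours.

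Among the 1811 sites that formed the 20 most-read kept sites of the tumours, 2 of dominated and 4 of diffuse tumours lay in a promoter window of the RefSeq table (GRCm38.p6, 250 bases before to 50 after a start). Those with the most reads in each class were in the promoters of Ntan1, an amidase of the N-degron pathway of protein turnover, in dominated tumour 45, and of Vta1 and 1700016L04Rik, whose windows overlap on opposite strands, in diffuse tumour 55. Vta1 takes part in endosomal sorting. The windows are printed along the gene's own strand (Ntan1 plus, Vta1 minus), with the TTAA nearest to the insertion in capitals.
Ntan1, chr16:13819001-13819300: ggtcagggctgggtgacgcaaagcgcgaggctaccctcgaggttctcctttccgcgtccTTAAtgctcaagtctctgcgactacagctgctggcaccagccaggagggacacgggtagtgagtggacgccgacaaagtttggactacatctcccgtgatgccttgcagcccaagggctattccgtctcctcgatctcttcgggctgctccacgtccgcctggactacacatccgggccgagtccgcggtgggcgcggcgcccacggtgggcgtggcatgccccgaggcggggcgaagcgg
Vta1, chr10:14705440-14705739: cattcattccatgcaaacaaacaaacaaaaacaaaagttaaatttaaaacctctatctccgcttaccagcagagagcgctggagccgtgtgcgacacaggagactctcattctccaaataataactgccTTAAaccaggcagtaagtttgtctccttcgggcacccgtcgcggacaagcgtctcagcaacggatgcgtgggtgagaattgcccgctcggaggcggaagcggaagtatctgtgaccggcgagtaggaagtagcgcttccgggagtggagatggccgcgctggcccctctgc
The Ntan1 insertion lay 190 bases before the start, on the strand opposite to the gene, with 43002 reads. The site of tumour 55, with 955 reads, lay 120 bases before the Vta1 start, on the strand opposite to Vta1, and 1 base before the 1700016L04Rik start, on the strand of that gene. TTAA occurs in 52.4% of the 32851 promoters of the table, so its presence in these windows is a description only.

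Median depth over all tumours was similar in both classes, without a test. By title form, median library totals were 66888 reads in dominated and 52062.5 in diffuse tumours of the form TgTum. In the form tgTum they were 19300.5 and 28597. Library totals ran from 2950 to 938987 reads in dominated tumours (median 43370) and from 3831 to 417815 in diffuse tumours (median 51543). The number of kept sites was 712 in the median dominated tumour (3 to 4875) and 948 in the median diffuse tumour (219 to 5446). Several libraries stood apart, and all of these were dominated. Fewer than 20 kept sites were left in 5 dominated libraries (tumours 14, 24, 37, 58 and 88) and in no diffuse library, so their values rest on 13, 3, 9, 3 and 3 sites. Fewer than 1000 kept reads were left in 3 libraries. Tumour 37 kept 17 of 3384 reads, tumour 79 kept 345 of 28972, and tumour 88 kept 5 of 20926, since other libraries held more reads at nearly all their positions. Tumour 79 shared 66 of its 100 most-read listed sites with tumour 77, tumour 37 shared 38 of 100 with tumour 35 and tumour 88 shared 23 of 85 with tumour 87, each from another mouse by title. The title of tumour 88 has the suffix R2 and otherwise names the mouse and gland of tumour 58, and the 2 were counted separately. A kept site of tumour 88, chr11:112951149 with 2 reads, lay next to the most-read site of tumour 58, chr11:112951148 with 28181 reads. The class of tumours 37, 79 and 88 therefore rests on few reads, and the measures over sites and the Trps1 count are given also without these 3.

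Within the classes the spread of reads was continuous, and no gap separated them. Of the tumours nearest the median, diffuse tumours 73, 5 and 90 had 12.2%, 12.3% and 12.6% of reads in their 10 sites, and dominated tumours 38, 53 and 32 had 12.6%, 12.7% and 12.7%. The share of the 10 sites had a median of 23.3% in dominated tumours (12.6% to 100%) and of 9.50% in diffuse tumours (3.35% to 12.6%). The single most-read site held a median of 6.0% (1.75% to 99.98%) against 1.67% (0.45% to 4.12%). It passed 10% of kept reads in 19 of 47 dominated tumours and 50% in 4. The 10 sites together passed 50% in 12 of 47 dominated and 0 of 47 diffuse tumours. The name dominated thus means only a 10-site share above the group median. In most of these tumours neither 1 site nor the 10 sites together held over 50% of kept reads. Reaching 50% of the kept reads took a median of 51 sites in dominated tumours (1 to 379) and 153 in diffuse tumours (52 to 542).

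**Figure D1:**
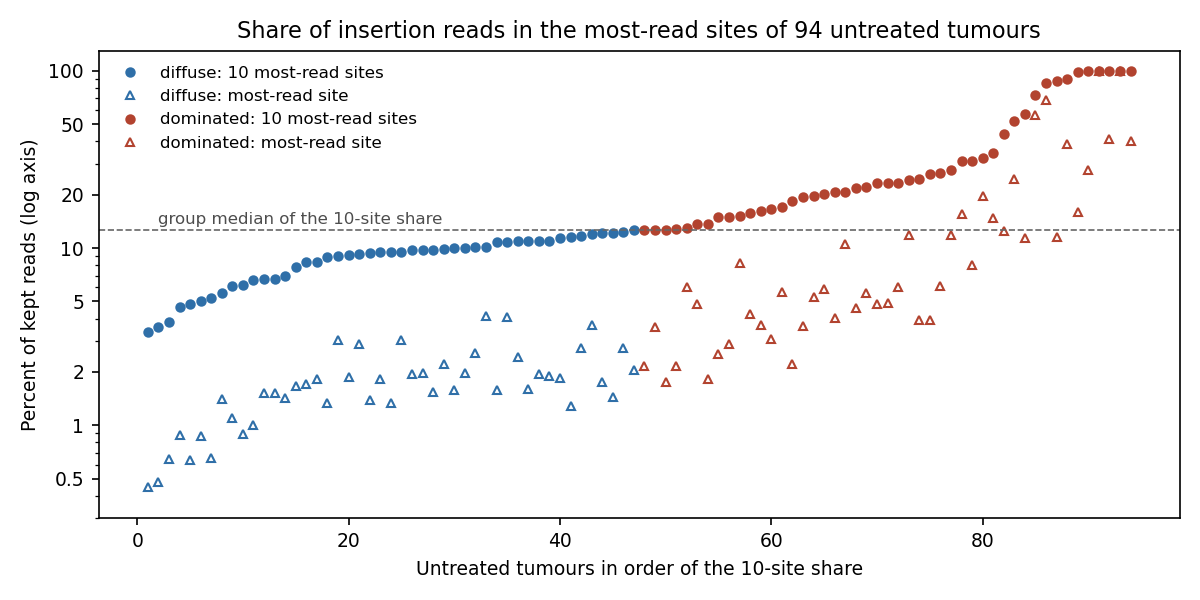
Percent of kept reads (log axis) in the 10 most-read kept sites (filled circles) and in the most-read site (open triangles) of each of the 94 untreated tumours, ordered by the 10-site share. The circles cross the group median of 12.6% without a step, and only the last few tumours approach 100%.

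**Figure D2:**
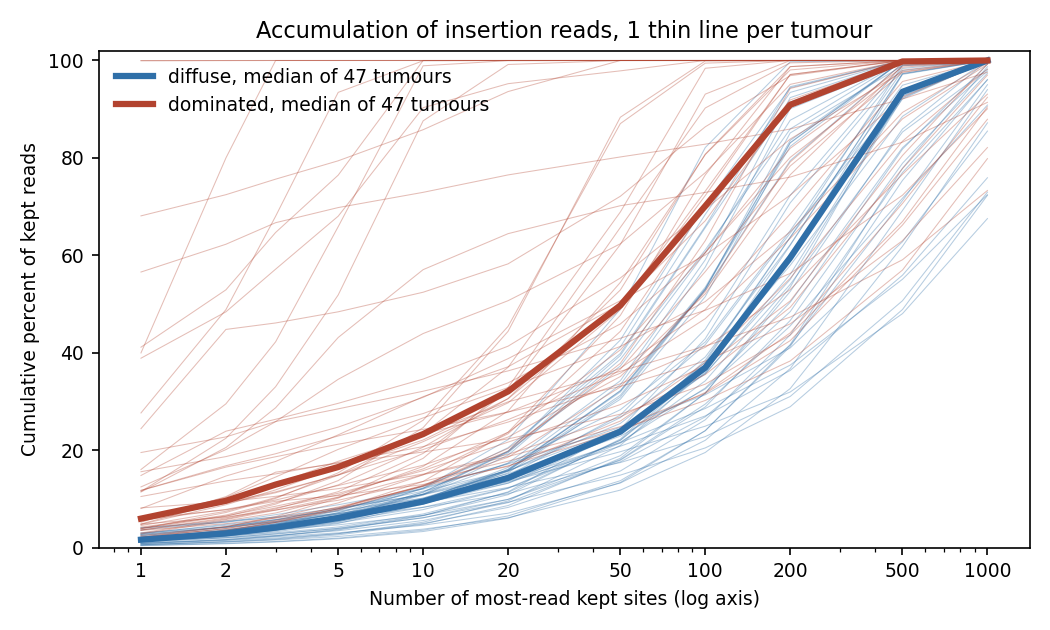
Cumulative percent of kept reads against the number of most-read kept sites (log axis), with a thin line per tumour and a thick line for the median of each class of 47. At 100 sites the medians were 70.1% for dominated and 37% for diffuse tumours.

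The highest peaks were in very different places, and those in genes named below are not a full list. Other peaks lay outside any gene region: tumours 14 (27.7%), 2 (19.6%, 182138 reads), 62 (16.1%), 19 (15.6%), 34 (14.8%), 49 (12.5%) and 68 (11.5%). Larger shares outside gene regions, in tumours 37 (41.2%), 88 (40%) and 41 (38.9%), were of only 17, 5 and 1177 kept reads. The most-read site lay in a gene region in 20 of 47 dominated and 24 of 47 diffuse tumours. In tumour 1, 110463 of 195177 kept reads (56.6%) were at 1 site in the Myc region (chr15:61983341-61990361), which encodes the growth-promoting transcription factor MYC, and no other tumour of either class had a Myc site among its 20. Tumour 86 had 24.5% of its reads (56322) in the region of Rnf41, a ubiquitin ligase that acts on ERBB3, and 20.4% (46902) in that of Heca. Tumour 35 had 11.5% of its reads (36587) in Cul1, a scaffold of SCF ubiquitin ligases, and 9.12% and 7.31% at 2 sites in Wasf1, a regulator of actin. Tumour 45 had its 2 most-read sites in Ntan1, with 8.07% and 6.67% of reads. In tumour 18 the first site (11.8%) lay in Pard3b, a cell polarity gene. Tumour 87 began with Nf1, the RAS brake neurofibromin, at 6.0% (2521 reads), followed by Trps1 at 3.12% (1314 reads). Tumours 58 and 24 had over 99% of kept reads at 1 site outside any gene region, chr11:112951148 with 28181 reads and chr15:5875717 with 7717 reads. These 2 peaks are the whole library rather than a peak among many sites, since each kept 3 sites. Tumour 79 had 235 of its 345 kept reads in Grhl2, an epithelial transcription factor. Only 1.19% of its 28972 reads were kept, so this site is a small part of that library and not a peak of it.

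The site table holds a further whole number per library and site, never above the read count, which the file headers do not define. At the most-read site its median was 22 (1 to 435) in dominated tumours and 12 (1 to 269) in diffuse tumours. It was 435 at the Myc site of tumour 1 and 322 at the Cul1 site of tumour 35. It was 2 at the single large site of tumour 58 and 1 at the first site of tumour 62, which had 29066 reads. A value of 5 or less at the most-read site occurred in 16 of 47 dominated and 14 of 47 diffuse tumours, and a value of 50 or more in 19 and 7. High read shares thus came with both high and low values of this number, and its part in the results was not tested beyond the alternative without low values given below.

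Whether dominated and diffuse tumours carried their most-read insertions in different genes was asked with the gene regions of the authors' table. The 1811 sites, 871 of dominated and 940 of diffuse tumours, included 847 inside a gene region and hit 658 genes. Of these genes, 566 were each hit in only 1 tumour and 92 in 2 or more. Dominated tumours hit 345 genes, diffuse tumours 365, and 52 genes were hit in both, which is 15.1% of the first list and 14.2% of the second. The 566 genes hit in only 1 tumour could not be in both lists, so the 52 came from the 92 others. The overlap of an arbitrary split was not computed, so these shares show no difference between the classes. More dominated tumours were hit in 299 genes, more diffuse tumours in 328, and equal numbers in 31.

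No gene passed the test. Only 6 genes were hit in at least 6 tumours, the fewest that can reach p under 0.05 in this design. In two-sided Fisher exact tests, with p-values adjusted by Benjamini-Hochberg, 0 of 6 differed between the classes (0%), none of these had an unadjusted p under 0.05 and the smallest was 0.203. Permuting the classes within mice gave 0 of 6 as well, also with 0 below an unadjusted 0.05. With 50 sites per tumour 0 of 21 genes passed (0%) and 2 had an unadjusted p under 0.05. With 100 sites it was 0 of 63 (0%) and again 2. These tests with 47 tumours a class can only show large differences, and a gene hit in fewer than 6 tumours could not be tested.

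Trps1 was the gene hit in the most tumours. It encodes a GATA-type zinc finger repressor of luminal mammary cells (Entrez 83925, chr15:50654759-50892041, minus strand, as inferred from the authors' extension of the region). Its 20-site counts were 11 of 47 dominated tumours (23.4%, Clopper-Pearson 95% interval 12.3% to 38%) and 17 of 47 diffuse tumours (36.2%, 22.7% to 51.5%). The odds ratio was 0.543 (0.197 to 1.45), with a Fisher exact p of 0.259 and an adjusted p of 0.778. The difference in the percent of tumours hit was -12.8 points, and -11.2 points without tumours 37, 79 and 88. The intervals overlap, and the share was lower in dominated tumours at 50 sites too (16 against 27 tumours, exact p = 0.0378, adjusted p = 0.397) and at 100 (23 against 30, exact p = 0.212). Only dominated tumours fell short of the full number of sites at each size. For comparison, the authors' deposited table lists a Trps1 insertion in 95.74% of untreated tumours over all their sites.

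Where Trps1 was hit, its share of the tumour's reads is given as a description, because read shares chose the classes. The best-placed Trps1 site held a median of 2.12% of kept reads (0.205% to 11.8%) in the 11 dominated tumours and 0.655% (0.239% to 2.74%) in the 17 diffuse tumours. It was among the 3 most-read sites in 6 dominated and 7 diffuse tumours, and the most-read site in 2 and 4. The 3 Trps1 sites with the largest shares, chosen after their values were seen, were those of tumour 94 (2688 reads, 11.8%), tumour 25 (17026 reads, 10.5%) and tumour 6 (3668 reads, 5.02%). They lay within 7.07 kb of each other, all on the plus strand, opposite to the gene, and in the contexts ggct, ggat and ggtc after TTAA. The further whole number at these sites was 92, 158 and 86. Dominated tumours held 13 Trps1 sites, at a median of 112 kb from the upstream end of the region (15.4 to 199.9 kb), and diffuse tumours 23, at 168 kb (39.6 to 223 kb). Insertions in the orientation of the gene numbered 4 of 13 in dominated and 9 of 23 in diffuse tumours (two-sided Fisher exact p = 0.727, over sites, some of which share a tumour).

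**Figure D3:**
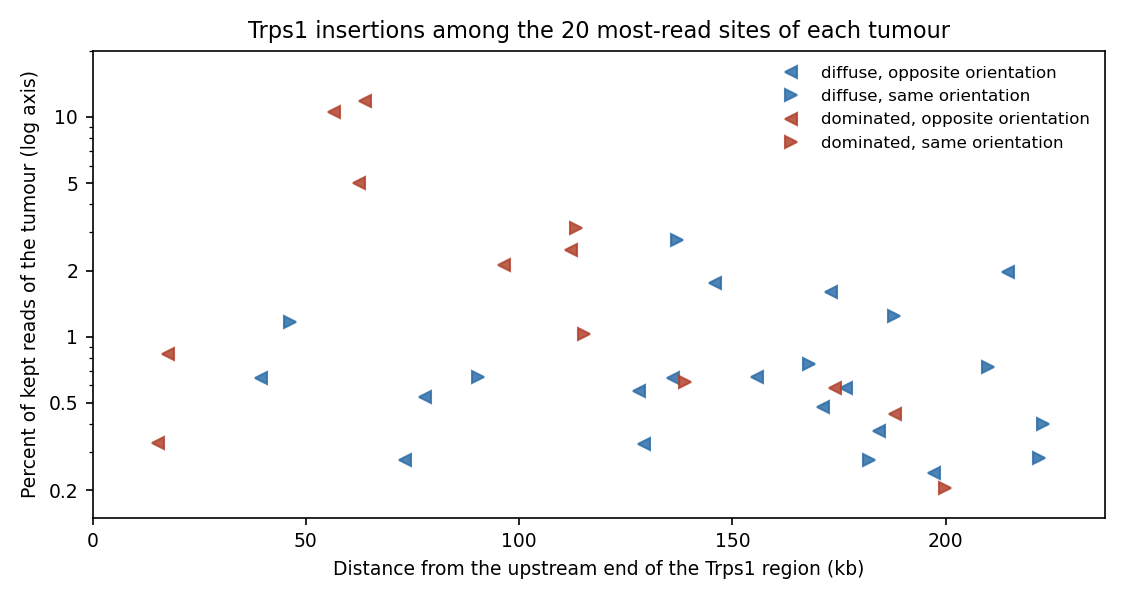
Percent of the tumour's kept reads (log axis) at each Trps1 insertion among the 20 most-read sites, against distance from the upstream end of the gene region, coloured by class and pointed by orientation. The 3 highest points, at 11.8%, 10.5% and 5.02%, are dominated tumours and lie within 7.07 kb.

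The other 5 tested genes lie on chromosome 10, the donor chromosome. Ctnna3, an alpha-catenin of cell junctions (chr10:63428098-65003667), was hit in 5 dominated and 4 diffuse tumours (exact p = 1). Utrn, which encodes utrophin and links the cytoskeleton to the matrix, was hit in 1 and 5 (p = 0.203). Esr1, the oestrogen receptor, was hit in 2 and 4, as was Pcdh15, a protocadherin (p = 0.677 each). Nkain2, a membrane protein, was hit in 3 and 3. Neither class led in all of them, and no difference among these 5 genes passed the test. Grik2, a kainate receptor subunit on the same chromosome, was hit in 1 and 3 tumours at 20 sites, in 1 and 11 at 50 (exact p = 0.00365, adjusted p = 0.0766) and in 6 and 16 at 100 (p = 0.0269). Sash1 was hit in 0 and 8 tumours at 100 sites (p = 0.00565, adjusted p = 0.356).

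Genes known from breast and other cancers were each hit in few tumours. Kmt2c, a histone H3 lysine methyltransferase, was hit in 3 dominated tumours and no diffuse tumour, and in 5 and 1 at 100 sites (exact p = 0.242 and 0.203). Nf1 was hit in 2 and 0, as was Runx1, a transcription factor of the luminal lineage. Fbxw7, the substrate receptor of the ubiquitin ligase that degrades MYC and NOTCH, was hit in 0 and 2, and in 0 and 5 at 100 sites (p = 0.0559). Zfx was hit in 0 and 2, Pisd-ps3 in 1 and 2, and Zbtb20 in 1 and 0. Nipbl, Tnrc6c and Vgll4 were each hit in 0 and 1, and Ank3 in none. A count of 0 of 47 allows a share of up to 7.55% (Clopper-Pearson upper bound), so none of these zeros shows an absence. Dmd was hit in 1 and 4 tumours, Map3k5 in 4 and 1, Exoc4 in 3 and 1, Lin28b in 0 and 4, and Mgat4c, Mthfd1l and Sugct in 2 and 2. Arfip1 was hit in 1 and 3, but its region in the authors' table (chr3:84496064-85889518) spans that of Fbxw7 (chr3:84813577-84979198), so a site in Fbxw7 counted for both.

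**Figure D4:**
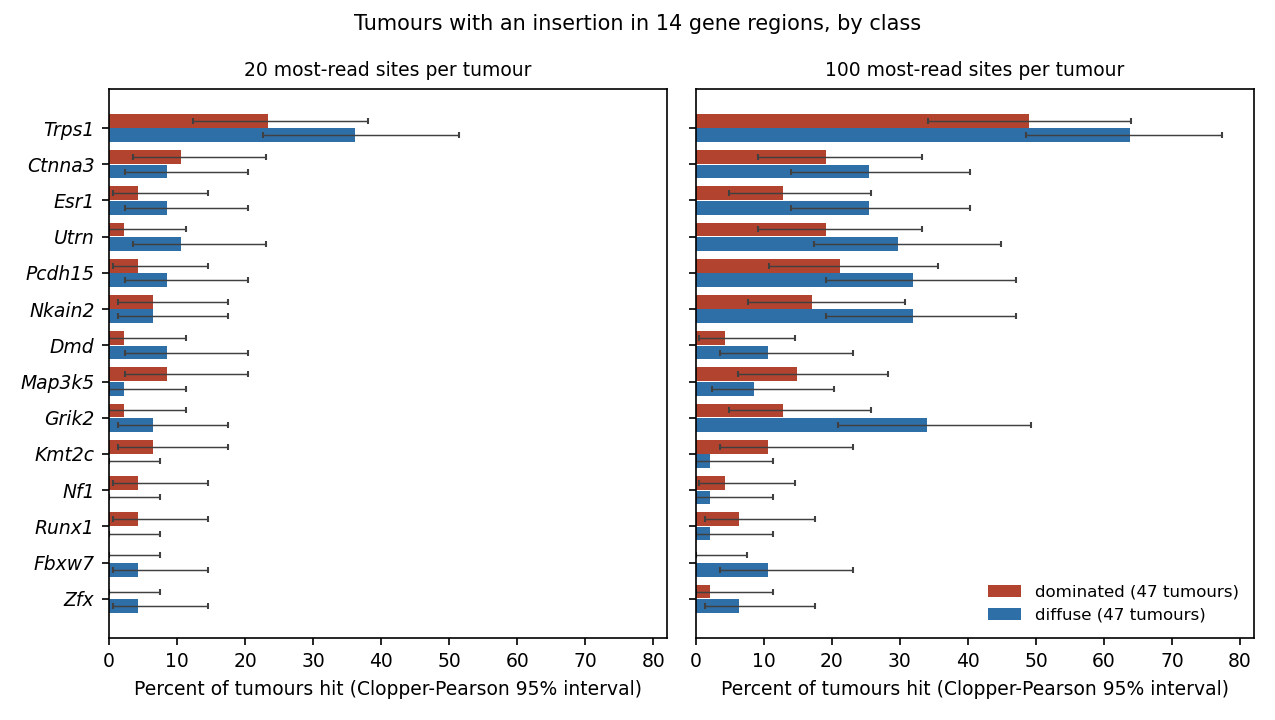
Percent of the 47 dominated and 47 diffuse tumours with an insertion in each of 14 gene regions, among the 20 (left) or 100 (right) most-read kept sites, with Clopper-Pearson 95% intervals. The Trps1 bars are the longest, 23.4% and 36.2% at 20 sites, and the intervals of the classes overlap in each gene shown.

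Gene lists were counted in the same way, as tumours with at least 1 member hit among the 20 sites. Of the 14 PI3K brakes with a region, among them Pik3r1 and Tsc1, none was hit in either class, and at 100 sites 4 were hit, in 4 dominated and 5 diffuse tumours. Over all 12406 genes, 658 were hit at 20 sites and 2427 at 100. A list of 14 is therefore too short for its 0 to show an absence. RAS brakes were hit in 3 dominated tumours (Nf1 in 2, Rasa1 in 1) and 1 diffuse tumour (Spred2). Receptor tyrosine kinases were hit in 0 and 2 (Erbb4 and Ros1), and NOTCH, WNT and Hippo genes in 2 and 5, with Fbxw7 and Lats1 leading. The list of mammary lineage transcription factors had 15 and 21 tumours hit, of which Trps1 made up most, with Esr1 next. Chromatin regulators were hit in 4 and 2, cohesin genes in 0 and 1 and cell cycle genes in 1 and 0. TGF-beta genes were hit in 2 (Smad2, Tgfbr2) and 1 (Bmpr1a). For adhesion and polarity it was 11 and 8, with Ctnna3 first and Cdh1 hit in 2 diffuse tumours. MicroRNA silencing genes were hit in 0 and 1. The 21 long genes, large targets by length alone, were hit in 7 and 13, with Dmd and Lsamp first. Genes of other cells of the gland, endothelial, stromal, immune and fat, were hit in 0 and 1 (Dcn), and as DNA targets they say nothing about which cells were present. Only 3 list members (Trps1, Esr1 and Ctnna3) were hit in enough tumours to be tested at 20 sites, and 0 of these 3 passed, so the other lists were counted and not tested. Over all 658 genes hit, 299 were hit in more dominated and 328 in more diffuse tumours, from 871 dominated and 940 diffuse sites. The median difference of the 6 tested genes was -4.26 percentage points, dominated minus diffuse.

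Measures over the 20 sites of each tumour asked whether the most-read insertions lay in different kinds of place, by a two-sided permutation test of the difference of means with 100000 resamples over tumours, adjusted over 5 measures. With classes permuted over all tumours, without regard to mouse, the percent of sites at TTAA was the only one that passed. With classes permuted within mice, TTAA, chromosome 10 and orientation passed (permutation adjusted p = 0.00155, 0.0327 and 0.0327). The percent at TTAA was 90.4% ± 17.3 (SD, n = 47) in dominated tumours and 98.2% ± 2.84 (SD, n = 47) in diffuse tumours. The difference (dominated minus diffuse, as below) was -7.82 points (permutation over all tumours, p = 0.00012, adjusted p = 0.0006). All 20 sites were at TTAA in 16 dominated and 32 diffuse tumours, and at least 2 were not in 12 and 2. The classes overlapped broadly, with medians of 95% (25% to 100%) and 100% (90% to 100%). Without the 5 libraries of fewer than 20 sites the difference was -4.26 points (93.9% ± 11.7, n = 42, against 98.2% ± 2.84, n = 47, permutation adjusted p = 0.00255). Without tumours 37, 79 and 88 it was -5.97 points (permutation adjusted p = 0.0014), and leaving out tumour 41 alone gave -6.4 points. Among libraries whose most-read site had a further value above 5 it was -2.35 points (96.3% ± 4.47, n = 31, against 98.6% ± 2.58, n = 33), and the adjusted permutation p was 0.0603. Within the title form TgTum it was -10.4 points (permutation p = 0.00151) and within tgTum -2.98 points (permutation p = 0.0389, adjusted over the 5 measures 0.194). Between TgTum and tgTum the difference itself differed by -7.38 points, which did not pass the test (permutation of the forms within class, p = 0.188, adjusted p = 0.47).

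The sites outside TTAA were of several kinds. In dominated tumours there were 64 of 871 (7.35%) in 31 tumours, and in diffuse tumours 17 of 940 (1.81%) in 15 tumours. Tumour 41 held 15 of the 64, and 4 tumours with 4 or more held 29. Of the 64, 16 lay within 10 bp of a site with more reads on the same strand in the same tumour, against 0 of 17. Sites next to those of other tumours were not counted, such as chr11:112951149 in tumour 88 beside chr11:112951148 in tumour 58. When sites of a tumour within 10 bp were counted once the difference was -5.32 points (permutation adjusted p = 0.0093). Such neighbours, and the few-read sites of libraries with few kept sites, entered the 20 through the same reads that set the class. The TTAA difference is thus not independent of the split, and what part of it the split fixed was not tested. A stretch of 10 kb of chromosome 2 that includes the listed position 98667123 held 7 of the 64 and 4 of the 17, and the first 3.05 Mb of chromosome 9 held 3 and 0. The further whole number was 1 at 44 of the 64 and at 9 of the 17. Some of these sites had many reads, such as the first site of tumour 28 with 2085 reads (8.19%). Over all deposited sites, 84.7% were at TTAA.

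**Figure D5:**
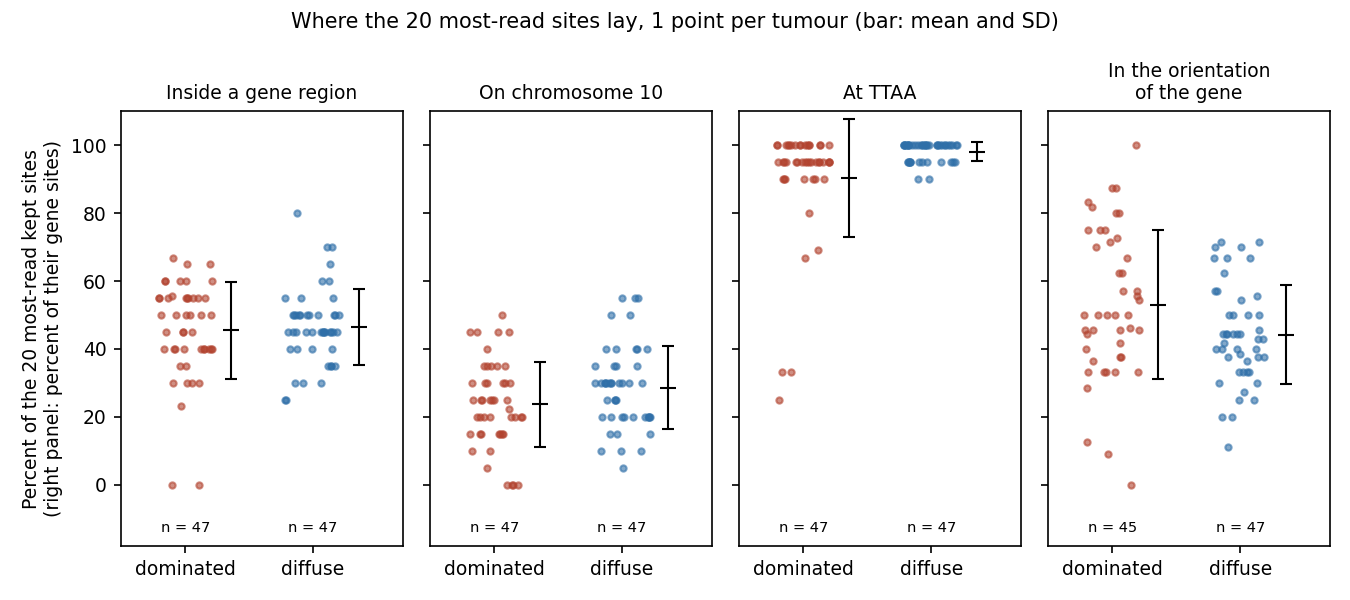
Percent of the 20 most-read kept sites of each tumour inside a gene region, on chromosome 10 and at TTAA, and percent of the gene sites in the orientation of the gene, with a point per tumour and the mean and SD of each class. Low points in the TTAA panel, down to 25%, belong to dominated tumours, whereas no diffuse tumour is below 90%.

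Sites on chromosome 10 made up 23.7% ± 12.6 (SD, n = 47) of the 20 in dominated and 28.6% ± 12.1 (SD, n = 47) in diffuse tumours, a difference of -4.95 points that missed the threshold (permutation p = 0.0599, adjusted p = 0.0998). Permuting the classes within mice gave an adjusted p of 0.0327. The difference was -4.99 points at 50 sites and -4.44 points at 100 sites (permutation adjusted p = 0.0112 and 0.01). Without the libraries of fewer than 20 sites the difference was -2.66 points (permutation p = 0.293), and without tumours 37, 79 and 88 it was -4.87 points (adjusted p = 0.0992). It was -6.77 points within TgTum (permutation p = 0.038) and -1.16 points within tgTum (permutation p = 0.813). When positions found in more than 1 library were dropped it was -2.29 points (permutation adjusted p = 0.415). No site on chromosome 10 was found in dominated tumours 14, 24, 58 and 88, each of which kept fewer than 20 sites. All autosomes and the X chromosome held sites of both classes.

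Gene sites lay in the orientation of their gene in 53.1% ± 21.9 (SD, n = 45) in dominated tumours and 44.2% ± 14.6 (SD, n = 47) in diffuse tumours, 8.84 points higher (permutation p = 0.0238, adjusted p = 0.0595). The adjusted p was 0.0327 when classes were permuted within mice. The difference was 12 points with 10 sites per tumour (adjusted p = 0.0345), 4.54 with 50 (adjusted p = 0.14) and 0.738 with 100 (adjusted p = 0.75). It was 7.63 points without tumours 37, 79 and 88 (adjusted p = 0.0992) and 8.46 points without the libraries of fewer than 20 sites (adjusted p = 0.0552). It was 2.81 points when sites were ranked and tumours split by the further whole number (adjusted p = 0.789) and 5.35 points when shared positions were dropped (adjusted p = 0.267). The percent of sites inside a gene region was 45.5% ± 14.3 (SD, n = 47) and 46.6% ± 11.2 (SD, n = 47) (permutation p = 0.698, a difference of -1.06 points, and 0.103 without tumours 37, 79 and 88), and genes with 2 or more of the 20 sites numbered 0.191 ± 0.449 and 0.213 ± 0.414 per tumour (permutation p = 1). The most-read site itself lay in a gene region in 20 dominated and 24 diffuse tumours and on chromosome 10 in 7 and 9.

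In the resistant tumours, split at their own median of 19.4% into 25 dominated and 26 diffuse, the percent at TTAA was 96.0% ± 9.79 and 97.5% ± 4.06 (SD, permutation p = 0.539). The percent inside a gene region was 56% ± 14 and 46.5% ± 12.1 (SD, permutation p = 0.0123, adjusted p = 0.0614). The orientation of the gene was shared by 48.2% ± 15.4 and 55.3% ± 19.4 of gene sites (SD, permutation p = 0.157). Permuting treatment within class, the class difference itself differed between untreated and resistant tumours by 15.9 points in orientation (p = 0.0137) and -10.5 points inside gene regions (p = 0.0222), which both missed the threshold after adjustment (0.0555). For TTAA it differed by -6.32 points (p = 0.104). Trps1 was hit in 8 of 25 dominated and 13 of 26 diffuse resistant tumours (exact p = 0.258), and in 12 and 20 at 100 sites (exact p = 0.0448, not adjusted).

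Both classes were found in both title forms, in all parts of the gland row and in most mice. The titles come in 2 forms, the only label here that could stand for a batch, although nothing says that it does. The libraries of the forms differed. Median library totals were 56672 reads in TgTum and 22542 in tgTum, and median kept sites were 1329 and 396. Sites on chromosome 10 made up a mean of 23.6% of the 20 in TgTum and 30.9% in tgTum. These differences between forms were not tested. The dominated share was 31 of 61 tumours (50.8%) in the form TgTum and 16 of 33 (48.5%) in tgTum (two-sided Fisher exact p = 1). When every position found in more than 1 library was dropped instead, 28 tumours changed class, and the dominated share changed to a difference of -35 points, TgTum minus tgTum (exact p = 0.00223). Glands 1 to 3 gave 29 dominated of 54 tumours (53.7%) and glands 4 and 5 gave 18 of 40 (45%), with an odds ratio of 1.41 (0.577 to 3.50, exact p = 0.532). Of 22 mice with 2 or more tumours, 16 had both classes, 5 had dominated tumours only and 1 had diffuse tumours only. Pairs of tumours of 1 mouse fell in the same class in 100 of 189 pairs (52.9%, one-sided permutation p = 0.143), and 1 mouse with 8 tumours had 1 dominated and 7 diffuse.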

How the data were processed

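Genomic DNA of 94 untreated and 51 resistant tumours was sheared, ligated to a splinkerette adaptor and amplified from the 5' arm of the transposon, and 4 library pools were sequenced with paired reads of 100 bp, per the labels' protocols. The submitters' processing notes name the build mm10. For aligner, site caller and filters, what was used is not given in the sources used here. Per site and library, the deposited site table gives whole-number read counts, not scaled by the authors as far as the values show, and a further whole-number count that the file headers do not define. The authors' deposited region table gives, per gene region, the percent of tumours hit. A further 580 per-library columns were not used.

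Of 198107 sites, 186375 had reads, 24085 of them in more than 1 library, and 551 tied sites were kept in none. Genes were the 12406 gene rows with an Entrez identifier, of which 12384 had a RefSeq symbol. Strands came from the RefSeq promoter table for 9755 genes and otherwise from the extended end of the region for 2416. That inference gave the RefSeq strand in 97.96% of 9024 genes with both. Gene positions are those of the authors' table, and exons and introns were not assigned, since no gene model was used.

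Tumours with at least 1 of their 20 most-read kept sites in a region were counted in each class, and Fisher exact tests (two-sided) were adjusted by Benjamini-Hochberg over genes hit in at least 6 tumours, at a threshold of 0.05. Measures per tumour were compared by permutation with 100000 resamples, adjusted over 5 measures. Fisher tests treat the tumours of 1 mouse as independent, so classes were also permuted within mice. Intervals are 95% and cover counting of tumours only. Named genes were those with the 10 smallest p, the 10 hit in most tumours, 14 chosen names and the 2 most-hit members of each list. Members, names and lists were chosen with earlier results of these data known. Library totals ran from 2950 to 938987 reads, and 16.9% of kept sites had 1 read, so low-ranked sites in shallow libraries are imprecise. Scripts were tested on simulated data. The tools were Python 3.11.15, numpy 2.4.6, pandas 2.3.3, scipy 1.17.1 and matplotlib 3.10.9. Alternatives covered the number of sites, the rule for shared positions, the split, depth, the read measure, the libraries used and the permutation scheme.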

Additional observations from a re-analysis of the deposited data

How the results depend on the processing

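No gene passed the adjusted test under any of the 22 alternatives, and the TTAA difference stayed below 0 in all 20 tried, passing the test in 18. It missed the threshold with the form tgTum only (-2.98 points) and without libraries whose most-read site had a further value of 5 or less (-2.35). Both differences were smaller than the -7.82 points over all 94 tumours, and both used fewer tumours (33 and 64). Which of these mattered was not tested. The chromosome 10 difference, not called, stayed below 0 throughout and passed with 10, 50 or 100 sites (-8.46, -4.99 and -4.44), with the further whole number in place of reads (-7.93) and with classes permuted within mice (-4.95). It shrank to -1.16 in tgTum only, -2.29 without shared positions, -2.66 without libraries of fewer than 20 sites and -3.01 without low further values. The orientation difference passed with 10 sites (12 points), with a split at the median of each title form (9.51) and with classes permuted within mice (8.84). It was 4.54 with 50 sites, 0.738 with 100, 2.81 with the further number and 5.35 without shared positions. The cause of these changes was not tested.

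Differences that were not called changed sign, and same-class pairs passed their test, as follows, and the cause was not tested. The gene region difference was 0.103 without libraries under 1000 kept reads, 3.84 in tgTum only, 0.904 without libraries of fewer than 20 sites and 0.87 without low further values. Genes with 2 or more sites differed by 0.0213 per tumour with 10 sites and with the split by 5 sites, 0.0638 with the further number, 0.00735 in tgTum only, 0.00152 without libraries of fewer than 20 sites and 0.0176 without low further values. Dropping every shared position gave title forms a difference of -35 points (Fisher exact p = 0.00223) and same-class pairs of 63% (one-sided p = 0.0193). Thinning to 5000 reads, which 86 tumours reached, gave -15.9 points and 57.8% (p = 0.0373). The split by 20 sites gave -16.3 points and libraries of 20 or more sites -2.06. By gland, tgTum only gave -21.1 points. Ctnna3 differed by -2.13 points with 10 or 50 sites and without shared positions, -6.38 with 100 and -8.51 with the further number. In tgTum only, Esr1 gave 0.368 and Pcdh15 6.62 points. Trps1 stayed below 0 in its 22 alternatives (-23.4 to -4.41 points).

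The alternatives without libraries of fewer than 20 sites or with low further values, and the omission of each tumour in turn (TTAA difference -8.03 to -6.4 points), were chosen after seeing the data. Permuting classes within mice, the blocked analysis that the titles allow, changed the calls for chromosome 10 and orientation and no other call. Depth limits the ranks: the site ranked 20 had a median of 240 reads in the 42 dominated tumours that had one and 152 in diffuse tumours, with 2 as the lowest of all.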
